A study of Mus musculus with 22 samples.

Results

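The livers of Cyp2c70-knockout mice were compared with those of wild-type mice, both fed chow. The comparison took the 5 arrays labelled KO-CYP2C70_Chow and the 5 labelled WT_Chow, 10 of the 22 arrays of the series, and every row of the value table that the platform annotation gives a single gene symbol, which left 24011 genes. All 10 animals were female, on the C57BL/6J background and 12 weeks old, and the only labelled difference between the groups was the genotype. Mice of the same 2 genotypes fed a chow with 0.1% ursodeoxycholic acid (UDCA) for 7 weeks from the age of 5 weeks, 6 of each, entered only an alternative fit. The labels do not say how the knockout allele was made or whether the wild-type mice were littermates. Total liver RNA of each mouse was hybridised to 1 Affymetrix MoGene 2.0 ST array, a 1-colour chip on which a set of short probes reads each gene, and the design text calls the animals biological replicates.

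Cyp2c70 is the hepatic cytochrome P450 with which mice convert chenodeoxycholic acid to muricholic acids, a hydrophilic class of bile acids that humans make little of. Mice that lack it keep a pool richer in hydrophobic, detergent-like bile acids, closer to the human pool, and are used to study damage to bile ducts. Hepatocytes make bile acids from cholesterol, take them back up from portal blood and secrete them into bile, and cholangiocytes, the epithelial cells of the ducts, line the way out. Injured ducts multiply, a process called the ductular reaction, and portal fibroblasts and hepatic stellate cells around them lay down collagen.

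Values are log2 of the deposited intensity. A change is the knockout mean minus the wild-type mean on that scale, given with its standard error (SE) from limma over 5 and 5 mice. A gene was called when its p, adjusted over all 24011 genes by the Benjamini-Hochberg method, was below 0.05. A level can be compared between mice for 1 gene but not between genes. Mice are numbered 1 to 5 within each genotype in the order of their accessions, and the number pairs no animals. The arrays had closely similar overall brightness, with medians of 28.7 to 30.7 before the logarithm was taken. Albumin, the main secretory product of hepatocytes, read 13.00 ± 0.03 (SD, n = 5) in the knockout and 13.02 ± 0.03 in the wild type, close to the highest intensity of the chow arrays (9877 before the logarithm), so it checks the tissue and has little room to show a rise. Of 14 hepatocyte markers 13 were not called. Of the 14, 4 had an unadjusted limma p below 0.05, and 4 were called lower in the fit of all 22 arrays. Their mean, set against the wild-type mean, was lower in every knockout mouse (-0.25 to -0.07) than in any wild-type mouse (-0.03 to 0.05). The deposited values carry no detection call, so a value below the array medians (4.84 to 4.94 in log2) is not known to be above background, and a change against it is one of deposited intensities.

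Of the 24011 genes, 2008 (8.36%) were called, 1240 higher (5.16%) and 768 lower (3.2%) in the knockout. The shares of 5.16% and 3.2% are the background for the counts of every gene list below. Rises were larger than falls: 314 genes changed at least 2-fold (1.31%), 251 up and 63 down, and 33 rose and 9 fell at least 4-fold. The median change over all genes was -0.04. The values of the groups did not overlap for 2264 genes (9.43%), which include 1593 of the called genes. The 2008 calls are not all equally firm: 913 of them (3.8% of all genes) were also called in each of the 10 fits that left out 1 array, 662 higher (2.76%) and 251 lower (1.05%).

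**Figure D1:**
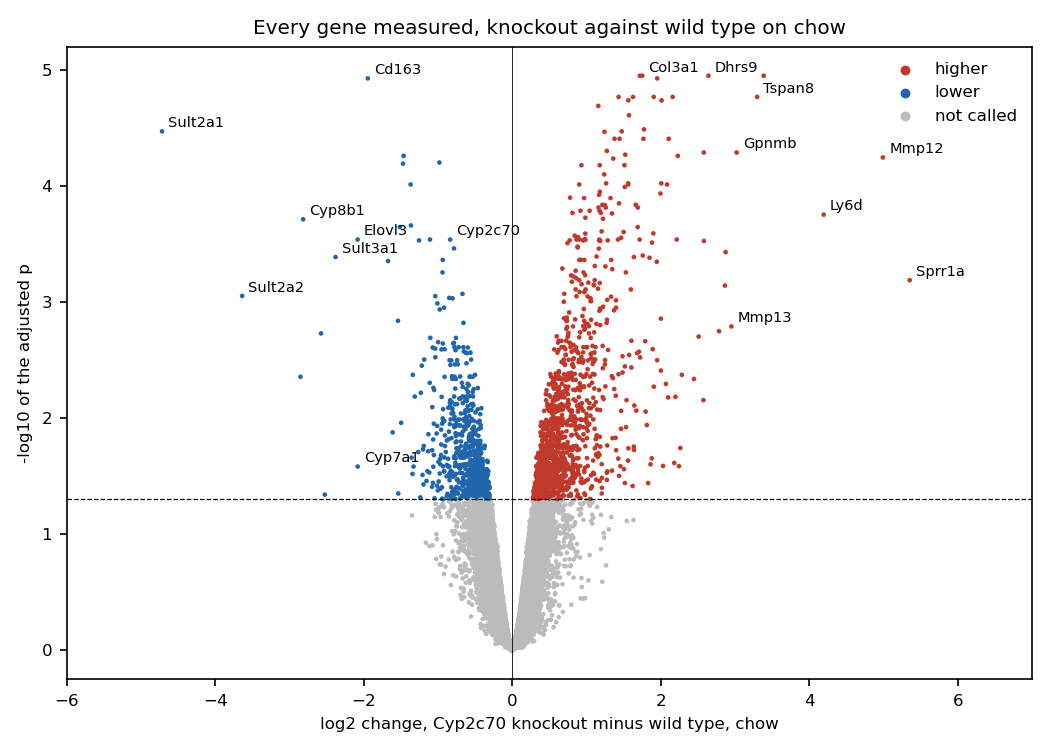
Each point is 1 of 24011 genes: the horizontal axis is the log2 change between knockout and wild type on chow, the vertical axis the -log10 of the adjusted p, with a dashed line at an adjusted p of 0.05. The 1240 genes called higher reach further from 0 than the 768 called lower, with Sprr1a at 5.35 on the right and Sult2a1 at -4.71 on the left.

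Knockout mice differed among themselves more than wild-type mice did. The median SD over all genes was 0.193 in the knockout and 0.168 in the wild type, and 59.1% of genes had the larger SD in the knockout. Among the called genes the medians were 0.242 and 0.148. Knockout mice 2 and 5 carried the largest changes: 48.2% of the genes called higher had their highest knockout value in mouse 2 and 28.8% in mouse 5, and 50.5% of those called lower had their lowest knockout value in mouse 5 and 32% in mouse 2. With mice 2 and 5 both left out, 733 genes were called (530 higher, 2.21%, and 203 lower, 0.845%), 704 of them among the 2008 and in the same direction, and all 2008 kept their sign. That smaller comparison reuses arrays by which the 2008 were called, so the kept signs are not an independent check. Genes whose call was lost in that smaller comparison are given with its adjusted p where their values are given.

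The targeted gene read 10.83, 10.65, 10.58, 10.67 and 10.52 in knockout mice 1 to 5 and 11.62, 11.57, 11.56, 11.41 and 11.28 in wild-type mice 1 to 5. All knockout values lay below all wild-type values, and the change was -0.83 ± 0.10, adjusted p = 0.000287, or 1.78-fold lower. A signal on this row therefore remained in the knockout. Whether it came from Cyp2c70 or from related Cyp2c transcripts was not tested. No source here places the probes relative to the altered part of the gene, so the row cannot show whether working enzyme was left. The call held in every alternative fit.

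Cyp2c70 lies at one end of a row of Cyp2c genes that encode related hepatic P450s, and near-identical members can share probe signal. Of 14 other measured Cyp2c genes, 4 fell and none rose. Cyp2c69 read 9.91, 10.18, 10.65, 10.53 and 9.72 in the knockout and 11.13, 11.31, 11.34, 11.10 and 11.28 in the wild type, with no overlap (-1.04 ± 0.16, adjusted p = 0.0025). Cyp2c39 read 6.62, 6.20, 6.95, 6.67 and 6.01 against 7.44, 7.31, 7.09, 7.32 and 7.59, also without overlap (-0.86 ± 0.16, adjusted p = 0.00809). Falls of Cyp2c37 (-0.55 ± 0.14, adjusted p = 0.0341) and Cyp2c68 (-0.46 ± 0.13, adjusted p = 0.0495) were smaller and less firm: that of Cyp2c37 was not called without knockout mouse 2 or 5 or without any 1 of the wild-type mice (adjusted p 0.0619 to 0.0774), that of Cyp2c68 was lost without knockout mouse 1, 2 or 5 or any 1 wild-type mouse (0.0595 to 0.12) and with array quality weights (0.0699), and with mice 2 and 5 both out the adjusted p was 0.133 and 0.268. Cyp2c38, Cyp2c40, Cyp2c50, Cyp2c54 and Cyp2c67 had changes of -0.71 ± 0.26, -0.69 ± 0.22, -0.56 ± 0.23, -0.52 ± 0.21 and -0.48 ± 0.18 and did not pass the test. In Cyp2c38 all knockout values lay below all wild-type values (10.99 to 11.18). Knockout mice 2 and 5 were lowest, at 10.23 and 9.21 beside 10.75 to 10.87 in the other knockout mice. Cyp2c55 had a higher mean in the knockout (1.05 ± 0.31, adjusted p = 0.0567), with values of 8.64, 6.71, 7.41, 8.04 and 8.02 against 6.86, 7.05, 6.20, 7.19 and 6.31 that overlapped. It was called higher with mice 2 and 5 out (1.31, adjusted p = 0.0402), without knockout mouse 2 alone, with the filter on dim genes and with either kind of weights.

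On the other side of Cyp2c70 in RefSeq order, Pdlim1 (0.52 ± 0.20, adjusted p = 0.124) and Entpd1 (0.41 ± 0.15, adjusted p = 0.117) did not pass the test. Blnk, an adaptor protein of B cell receptor signalling and the farthest of the 10 measured genes on that side, was named after its values were seen. It rose 2.09-fold (1.06 ± 0.15, adjusted p = 0.000975) and kept its call in each fit without 1 array and with mice 2 and 5 out (0.0121). Between Entpd1 and Blnk lie Cc2d2b, Ccnj, E030044B06Rik and Zfp518a, which changed by -0.06 to 0.10 and were not called. The call of Aldh18a1, an enzyme of proline synthesis, at 0.82 ± 0.22, adjusted p = 0.0352, was lost without knockout mouse 2, 3 or 5 or without any 1 wild-type mouse (0.0639 to 0.0829), and with mice 2 and 5 both out (0.191). Tctn3, next to them, changed by 0.04 ± 0.12 (adjusted p = 0.897).

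**Figure D2:**
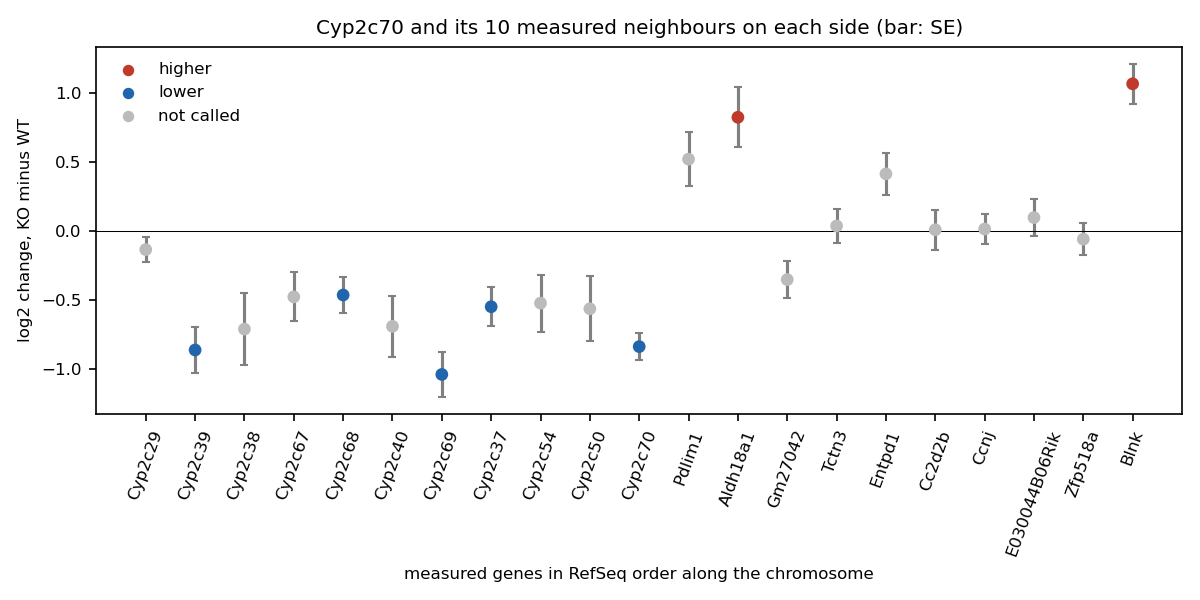
The log2 change (knockout minus wild type) with its SE is drawn for Cyp2c70 and the 10 measured genes on each side of it, in RefSeq order along the chromosome; grey points were not called. The 10 Cyp2c genes left of Cyp2c70 all lie below 0, between -0.13 and -1.04, but only 4 of them were called, while the called genes on the right lie above 0.

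Transcripts for both of the best-known regulated steps of bile acid synthesis fell. Cyp8b1, the sterol 12-alpha-hydroxylase that directs synthesis to cholic acid, read 7.19, 6.18, 7.22, 7.83 and 5.81 in the knockout and 9.61, 9.39, 9.85, 9.76 and 9.69 in the wild type. Every knockout mouse was low, mice 5 and 2 the lowest, and the fall was 7.04-fold (-2.82 ± 0.31, adjusted p = 0.000192). Cyp7a1, the rate-limiting enzyme of the classic pathway, read 8.52, 8.99, 9.43, 9.67 and 6.20 against 10.26, 10.80, 10.69, 11.00 and 10.46, 4.23-fold lower (-2.08 ± 0.51, adjusted p = 0.026). Its values did not overlap either, but mouse 5 stood far below the rest: without it the change was -1.49. The Cyp7a1 call was lost without wild-type mouse 2, 3, 4 or 5 (adjusted p 0.0511 to 0.0603) and with the intensity trend and robust moderation (0.0592), and it held with mice 2 and 5 both out (0.0117).

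Of 18 measured genes of classic and alternative bile acid synthesis, 5 were called lower and 1 higher, beside 3.2% and 5.16% of all genes, and the median change was -0.39. Hsd3b7, which follows CYP7A1 in the pathway, was 1.61-fold lower (-0.69 ± 0.16, adjusted p = 0.0218). Cyp7b1, the oxysterol hydroxylase of the alternative pathway, was 1.49-fold lower (-0.57 ± 0.16, adjusted p = 0.0439). Both calls depended on single mice: Hsd3b7 lost its call without knockout mouse 2 or wild-type mouse 1 or 3 (0.0507 to 0.0567), Cyp7b1 without knockout mouse 2 or 5 or wild-type mouse 1, 2, 3 or 4 (0.0633 to 0.101), by quantile normalization and by array quality weights (0.0529 and 0.0638), and both with mice 2 and 5 out (0.106 and 0.229). The rise was in Ch25h, cholesterol 25-hydroxylase, which macrophages also make (1.62 ± 0.44, adjusted p = 0.0383). Its knockout values were 4.31, 6.10, 6.27, 4.21 and 6.83, high in mice 2, 3 and 5 and near the wild-type range of 3.71 to 4.13 in mice 1 and 4. That call was lost without knockout mouse 2, 3 or 5, without any 1 wild-type mouse (0.0665 to 0.101), with a pseudocount of 16 and with the intensity trend (0.0567 and 0.0775), and with mice 2 and 5 out (0.226).

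Several uptake transporters of hepatocytes fell, and an uptake transporter of duct epithelium rose. Slc10a2 (ASBT), the apical sodium-dependent bile acid transporter of ileum and bile duct epithelium, read 7.48, 7.60, 8.05, 6.94 and 8.47 in the knockout and 5.01, 5.43, 5.25, 5.11 and 4.85 in the wild type, 5.98-fold higher (2.58 ± 0.23, adjusted p = 5.1e-05). All knockout mice exceeded all wild-type mice by more than a unit, mouse 4 the least. Slc10a1 (NTCP), the main sodium-dependent uptake transporter of hepatocytes, fell 1.52-fold: its values of 10.78, 10.50, 10.76, 10.92 and 10.29 lay just below those of the wild type, 11.37, 11.08, 11.35, 11.30 and 11.18 (-0.61 ± 0.12, adjusted p = 0.0103). Among the organic anion uptake transporters Slco1a4 fell 1.79-fold (-0.84 ± 0.17, adjusted p = 0.0112). Slco1a1 fell 3.05-fold (-1.61 ± 0.34, adjusted p = 0.0132), with overlap because wild-type mouse 5, at 7.89, lay below knockout mice 3 and 4, and an adjusted p of 0.106 with mice 2 and 5 out. In all, 4 of 7 uptake transporters were called lower and 1 higher.

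Export transporters had 4 of 11 members higher and 1 lower. Slc51b, the beta subunit of the basolateral bile acid exporter OST, read 5.39, 6.11, 5.88, 5.52 and 6.27 against 4.71, 4.79, 4.22, 4.66 and 4.66 (1.22 ± 0.17, adjusted p = 0.00109). Abcb1a and Abcb1b, which encode the multidrug efflux pumps of mice, rose 1.85-fold (0.89 ± 0.17, adjusted p = 0.00851) and 1.9-fold (0.93 ± 0.19, adjusted p = 0.0102), and Abcc1, a basolateral pump of conjugates, 1.68-fold (0.75 ± 0.15, adjusted p = 0.0105; 0.068 with mice 2 and 5 out). Abcb11, the canalicular bile salt export pump, was not called (-0.19 ± 0.12, adjusted p = 0.389). Its knockout values were 11.30, 10.62, 11.15, 10.99 and 10.79 and its wild-type values 11.16, 11.20, 11.24, 11.16 and 11.03, so mice 2 and 5 were low and mouse 1 lay above every wild-type mouse. Pctp, a phosphatidylcholine transfer protein, fell 1.94-fold (-0.96 ± 0.21, adjusted p = 0.0168), 1 of 2 genes lower and 1 higher among 10 phospholipid and sterol transport genes. Those shares are 20% lower and 10% higher, beside 3.2% and 5.16% of all genes.

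Among 15 bile acid receptors and coregulators, 1 rose (6.67%) and 2 fell (13.3%), beside 5.16% and 3.2% of all genes. Nr1h4, which encodes the bile acid receptor FXR, was not called (-0.49 ± 0.17, adjusted p = 0.102), nor was Nr0b2, which encodes its target SHP (0.33 ± 0.20, adjusted p = 0.358). Wild-type values of Nr0b2 ran from 6.52 to 7.58 and knockout values from 6.96 to 7.69, so they overlapped widely. Nr1i3, which encodes the xenobiotic receptor CAR, fell 2.28-fold (-1.19 ± 0.26, adjusted p = 0.0173; 0.085 with mice 2 and 5 out). Fgf21, a hepatic hormone of the fasting response, rose 1.59-fold, from 5.65, 5.55, 5.54, 5.60 and 5.25 in the wild type to 5.96, 6.17, 6.32, 6.58 and 5.91 in the knockout (0.67 ± 0.13, adjusted p = 0.00936), and mice 2 and 5 were not its highest animals.

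Several hydroxysteroid sulfotransferases fell. Sult2a1, which sulfates bile acids and steroids, read 2.80, 2.35, 4.82, 2.64 and 2.45 in the knockout and 8.25, 7.94, 7.72, 7.29 and 7.44 in the wild type. That is 26.3-fold lower (-4.71 ± 0.39, adjusted p = 3.35e-05), and mouse 3, at 4.82, stood apart from the other knockout mice at 2.35 to 2.80. Those 4 values lie below the array medians, so the fold is one of deposited intensities and not of a signal known to be above background. Sult2a2 showed the same order of mice, with 6.17, 4.52, 7.98, 5.34 and 4.98 against 9.69, 9.51, 9.30, 9.25 and 9.44 (-3.64 ± 0.49, adjusted p = 0.000879). Sult3a1 read 6.07, 6.68, 7.90, 6.89 and 6.26 against 9.15, 9.35, 9.54, 9.02 and 8.63 (-2.38 ± 0.29, adjusted p = 0.000406), again with mouse 3 highest among the knockouts. Sult5a1 fell 1.76-fold (-0.82 ± 0.13, adjusted p = 0.00316). Of 14 measured sulfotransferases 8 were called lower and none higher, 5 of the 8 kept their call in each fit without 1 array, and 4 were called with mice 2 and 5 out. Paralogs of this family are close in sequence, so the share of each in the signal is uncertain. Sult3a2, which the list does not hold and which was named after its values were seen, read 3.64, 3.22, 5.02, 3.98 and 4.20 against 6.62, 7.65, 7.48, 7.69 and 4.87 (-2.85 ± 0.49, adjusted p = 0.00438), and wild-type mouse 5 lay within the knockout range.

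Sult2a1, Sult2a2, Sult3a1 and Cyp17a1 are transcribed more in female than in male mouse livers, and all of the mice here were female. On a list of 15 measured female-biased liver genes 8 fell and none rose, with a median of -1.27. Only 4 of the 8 kept their call in each fit without 1 array, while 7 were called with mice 2 and 5 out. The mean level of the list, set against the wild-type mean, was -1.39, -2.09, -0.71, -1.50 and -1.83 in knockout mice 1 to 5 and 0.03, 0.12, 0.03, 0.08 and -0.26 in wild-type mice 1 to 5. Cyp17a1, the steroid 17-alpha-hydroxylase, read 8.85, 8.71, 9.58, 8.26 and 9.44 against 10.72, 10.68, 10.67, 10.54 and 10.58 (-1.67 ± 0.21, adjusted p = 0.00044). Cyp3a16 had a wide spread in both groups (-2.52 ± 0.71, adjusted p = 0.0454), and its groups overlapped. It lost its call in each fit without 1 array other than those without knockout mouse 3 or wild-type mouse 5 (0.0712 to 0.104), with mice 2 and 5 out (0.206), and with a pseudocount of 16, the intensity trend or group-specific weights (0.0546 to 0.0954), and its change was -3.18 without wild-type mouse 5. Of 14 measured male-biased genes 5 fell and 1 rose, with a median of -0.27.

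Fewer other genes of detoxification were called. Among 24 further drug-metabolizing P450s 5 were lower and none higher, among them Cyp2a22 (-0.94 ± 0.19, adjusted p = 0.01), but only 1 of the 5 kept its call in each fit without 1 array. On a list of 13 genes of glucuronidation, which does not hold the glucuronosyltransferase Ugt1a10 (-1.06 ± 0.26, adjusted p = 0.0261; 0.18 with mice 2 and 5 out), none was called lower and the 1 called member, Ugdh, which makes UDP-glucuronic acid, rose 1.8-fold (0.85 ± 0.15, adjusted p = 0.00571). In glutathione metabolism 5 of 23 genes rose and 2 fell. The glutathione transferase Gstt3 fell 2.11-fold (-1.08 ± 0.21, adjusted p = 0.00799) and Gstp1 rose 1.51-fold (0.59 ± 0.12, adjusted p = 0.0102). Gclc, the catalytic subunit of glutathione synthesis, had knockout values of 9.85, 11.10, 10.54, 10.01 and 11.29 against 9.72, 9.58, 9.81, 9.57 and 9.48 (0.92 ± 0.24, adjusted p = 0.0351), and this call was lost without knockout mouse 2, 3 or 5, without any 1 wild-type mouse (0.0562 to 0.0902), with the intensity trend (0.0511) and with mice 2 and 5 out (0.127).

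Most markers of bile duct epithelium rose, and to a like extent in every knockout mouse. Of 16 measured cholangiocyte markers 11 were called higher and none lower, beside 5.16% of all genes, with a median change of 1.00 against -0.04 over all genes. The mean level of the list was 1.06, 1.24, 0.78, 0.93 and 1.00 above the wild-type mean in knockout mice 1 to 5 and stayed within -0.05 and 0.06 in the wild type. Of the 11 calls, 10 kept theirs in each fit without 1 array, and 10 members were called with mice 2 and 5 out. In bulk liver RNA, more cells of a type and more RNA per cell cannot be told apart, here and for every cell type below.

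Tspan8, a tetraspanin of epithelial cells, had the largest change on this list, with 7.35, 8.52, 6.88, 7.23 and 8.06 in the knockout and 4.18, 4.23, 4.37, 4.29 and 4.48 in the wild type (9.84-fold, 3.30 ± 0.25, adjusted p = 1.69e-05). Epcam, the surface molecule of duct and progenitor cells, read 6.70, 6.66, 6.13, 6.42 and 6.48 against 4.87, 5.24, 5.19, 4.98 and 4.88 (1.45 ± 0.12, adjusted p = 3.88e-05). Krt19, a duct keratin, read 5.28, 5.15, 5.16, 5.04 and 5.22 against 4.34, 4.20, 4.32, 4.26 and 4.06 (0.93 ± 0.09, adjusted p = 6.56e-05). For these 3 genes the gap between the groups was wider than the range within either. The mucin Muc1 rose 3.75-fold (1.91 ± 0.14, adjusted p = 1.69e-05), Cd24a 2.86-fold, Prom1 2.71-fold and the annexin Anxa13 2.08-fold. Sox9, the transcription factor of duct cells and of hepatocytes on the way to a duct fate, rose 2.7-fold (1.43 ± 0.24, adjusted p = 0.00416), with 8.56 and 8.07 in mice 2 and 5 and 7.02 to 7.50 in the others. Krt7, another duct keratin, was 1.42-fold higher (0.50 ± 0.14, adjusted p = 0.0455), but its values overlapped and the call was lost without knockout mouse 1, 2 or 5, without any 1 wild-type mouse (0.0564 to 0.115), under quantile normalization, median subtraction or array weights (0.0514 to 0.0787), and with mice 2 and 5 out (0.268).

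Keratins shared with hepatocytes followed another order of mice than the duct markers. Krt8 read 9.42, 11.06, 10.38, 9.38 and 11.21 in the knockout against 8.30, 8.47, 8.36, 8.27 and 8.29 in the wild type (1.95 ± 0.32, adjusted p = 0.00315), and its partner Krt18 9.25, 11.27, 10.63, 9.40 and 11.19 against 8.60, 8.60, 8.64, 8.40 and 8.52 (1.80 ± 0.35, adjusted p = 0.00874). In both, mice 2 and 5 were highest, mouse 3 was between, and mice 1 and 4 lay nearest to the wild type. The knockout SD was 0.87 for Krt8 and 0.09 for Krt19. Of 14 keratins 4 were higher and none lower. Among these 4, Krt7 and Krt19 are also on the cholangiocyte list.

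Some genes of cell contacts rose. Of 29 claudin, junction and polarity genes 10 were higher and none lower, although only 4 kept their call in each fit without 1 array. Cdh1 (E-cadherin) rose 3.03-fold (1.60 ± 0.21, adjusted p = 0.000773), Cldn7 1.66-fold (0.73 ± 0.11, adjusted p = 0.00144) and the gap junction gene Gja1 1.89-fold (0.92 ± 0.14, adjusted p = 0.00181). Of 22 genes of the Notch and YAP pathways, which act in the shaping of ducts, 7 rose and none fell. The YAP target Ankrd1 read 6.07, 6.45, 5.73, 6.08 and 6.14 against 4.82, 4.70, 4.81, 5.03 and 4.79 (1.27 ± 0.12, adjusted p = 9.4e-05). Ccn2 (CTGF), which is a target of both YAP and TGF-beta, rose 2.2-fold (1.13 ± 0.16, adjusted p = 0.00153), the YAP partner Tead1 1.7-fold and the Notch ligand Jag1 1.67-fold (0.74 ± 0.11, adjusted p = 0.00163).

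Sprr1a, a small proline-rich protein of the cornified envelope of squamous epithelium, had the largest change of all genes. It read 7.68, 11.50, 9.44, 7.42 and 11.36 in knockout mice 1 to 5 and 4.39, 4.07, 4.04, 4.07 and 4.06 in the wild type, a 40.9-fold rise (5.35 ± 0.69, adjusted p = 0.000643). The knockout mice were all high, but mice 2 and 5 were more than a further 3 log2 units above mice 1 and 4. Ly6d, a surface antigen of stratified epithelium, was also highest in mice 2 and 5, with 8.76, 11.24, 9.54, 9.01 and 11.36 against 5.79, 5.37, 6.05, 5.85 and 5.88 (4.20 ± 0.45, adjusted p = 0.000175), and so was the epithelial membrane protein Emp1, with 7.39, 9.10, 7.46, 7.23 and 8.42 against 5.23, 5.61, 5.19, 5.46 and 5.19 (2.58 ± 0.30, adjusted p = 0.000295). Dhrs9, an epithelial retinol dehydrogenase, was as high in every knockout mouse: 8.15, 8.04, 8.14, 7.86 and 7.85, against 5.43, 5.49, 5.76, 5.51 and 4.63 (2.64 ± 0.18, adjusted p = 1.11e-05). Of 17 squamous and epithelial injury genes 6 rose and none fell, so most of the list did not pass the test, and its median was 0.27.

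**Figure D3:**
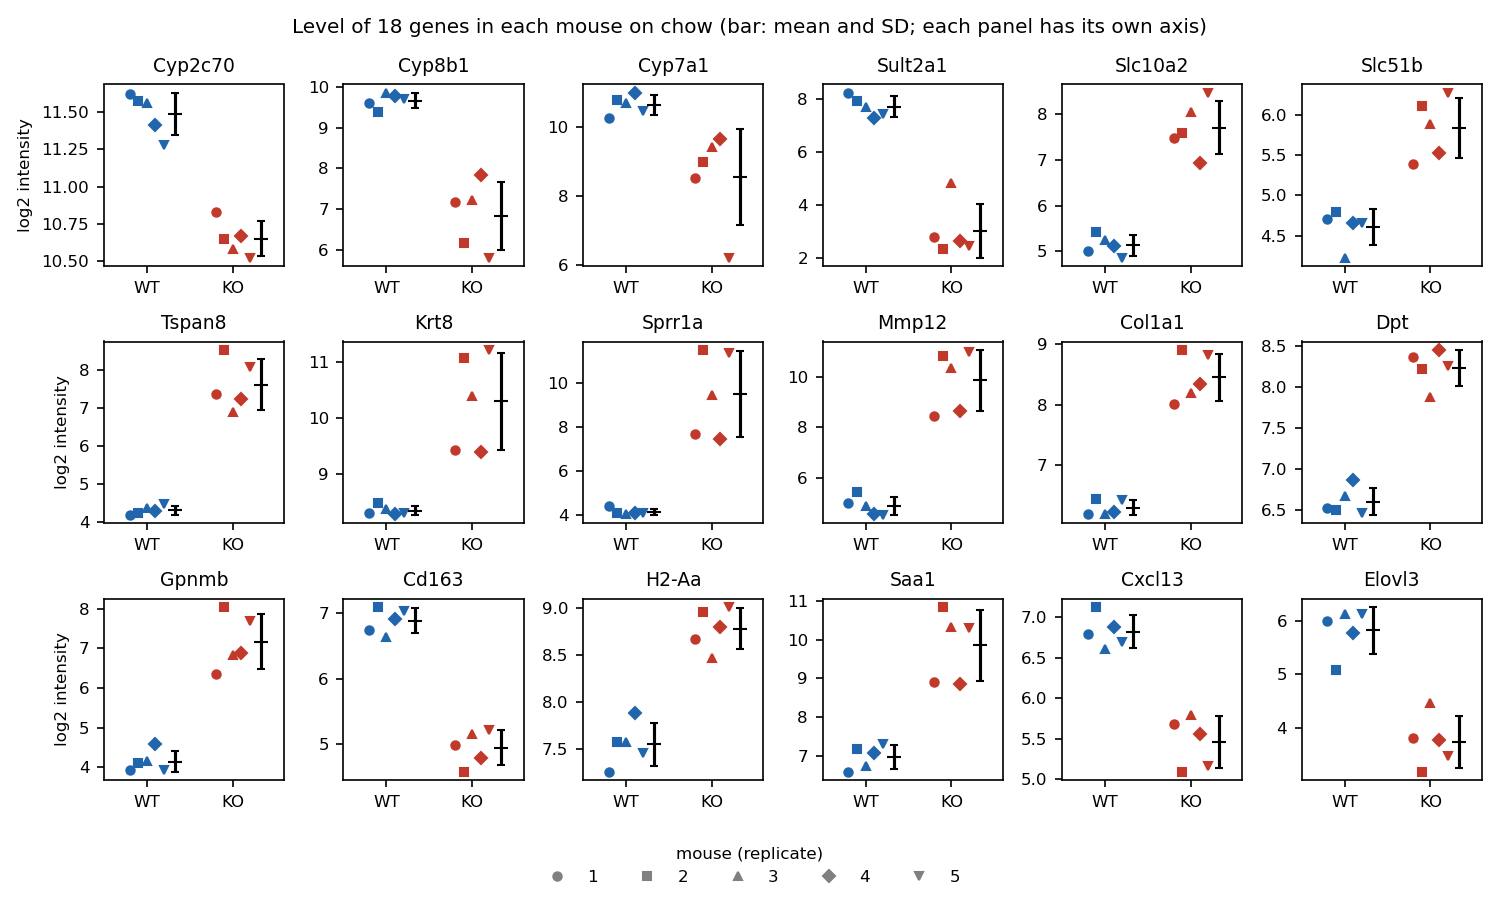
Each panel shows the log2 intensity of 1 gene in each mouse, wild type (WT) in blue and knockout (KO) in red, with 1 symbol per mouse number and a bar for the mean and SD; each panel has its own vertical axis. Mice 2 and 5 (square and lower triangle) are the highest knockout mice for Krt8, Sprr1a and Mmp12 and the lowest for Cyp8b1, while Dpt and Cd163 lie at a like level in all 5.

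Sprr1a and Mmp13 are textbook targets of AP-1, the dimers of Jun and Fos proteins, which bind the letters TGANTCA. RefSeq (GRCm38.p6) gives a promoter window, from 250 bases before to 50 after a transcript's start, for 18073 of the genes. AP-1 letters, which read alike on both strands, occurred in a window of 8.43% of these genes. Some genes have several windows, 21985 over all genes, and a gene counted when any of its windows held the letters. Among the 251 genes called at least 2-fold higher, 186 had a window and 36 of these (19.4%) held the letters, and among the 63 called at least 2-fold lower it was 3 of 47 (6.38%). A match of letters is not a bound site, and no factor was measured here. The windows below, without the last 50 bases, are of 5 genes that rose and hold the letters, which are set in capitals, 5′ to 3′ on the gene's strand: Sprr1a at chr3:92485882-92486131 (minus strand), Mmp13 at chr9:7272264-7272513 (plus), the start of Mmp12 at chr9:7347124-7347373 (plus), Anxa2 at chr9:69453433-69453682 (plus) and Slc10a2 at chr8:5105288-5105537 (minus). They show that the Sprr1a window has the letters 2 times and that in Mmp13 and the printed Mmp12 window they sit close to the start. Mmp12 has another RefSeq window, at chr9:7344147-7344446 with its last 50 bases, that does not hold the letters.
Sprr1a: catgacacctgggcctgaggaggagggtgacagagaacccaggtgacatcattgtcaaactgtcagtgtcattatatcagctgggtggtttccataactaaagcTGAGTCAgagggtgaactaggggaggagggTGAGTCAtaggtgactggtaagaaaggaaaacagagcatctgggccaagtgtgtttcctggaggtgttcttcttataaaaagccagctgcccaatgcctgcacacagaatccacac
Mmp13: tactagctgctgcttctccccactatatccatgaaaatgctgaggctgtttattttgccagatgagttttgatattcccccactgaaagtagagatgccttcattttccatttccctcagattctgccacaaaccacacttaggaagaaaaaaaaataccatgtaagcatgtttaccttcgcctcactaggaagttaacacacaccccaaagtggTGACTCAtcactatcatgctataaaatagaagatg
Mmp12: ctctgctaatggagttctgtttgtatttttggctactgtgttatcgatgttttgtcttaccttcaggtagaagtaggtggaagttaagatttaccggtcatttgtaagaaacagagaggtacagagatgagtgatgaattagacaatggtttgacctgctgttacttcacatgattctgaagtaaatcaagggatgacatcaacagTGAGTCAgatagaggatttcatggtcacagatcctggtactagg
Anxa2: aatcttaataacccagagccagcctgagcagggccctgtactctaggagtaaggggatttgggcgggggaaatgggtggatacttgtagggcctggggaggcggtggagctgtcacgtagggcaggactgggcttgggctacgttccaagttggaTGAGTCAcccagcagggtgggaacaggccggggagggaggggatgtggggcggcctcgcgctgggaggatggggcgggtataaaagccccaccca
Slc10a2: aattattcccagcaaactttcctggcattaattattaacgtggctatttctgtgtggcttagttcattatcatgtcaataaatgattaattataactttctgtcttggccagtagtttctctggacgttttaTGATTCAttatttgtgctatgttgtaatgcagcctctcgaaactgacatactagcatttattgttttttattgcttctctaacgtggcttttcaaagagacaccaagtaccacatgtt

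For comparison, the antioxidant response element TGACNNNGC, searched on both strands, was in the windows of 15% of all genes, 15.1% of those at least 2-fold higher and 21.3% of those at least 2-fold lower, and the cAMP response element TGACGTCA in 2.57%, 2.15% and 2.13%. The letters of the hepatocyte factor HNF1, GTTAAT, any base and then ATT, on either strand, were rarer, in 0.47% of all genes, 0.538% of the higher and 6.38% of the lower ones. Those 3 of 47 lower genes were Sult2a3 (-1.06 ± 0.23, adjusted p = 0.0152), Sult2a5 (-1.05 ± 0.19, adjusted p = 0.00569) and Ugt1a10 (-1.06 ± 0.26, adjusted p = 0.0261), named because they held the letters. The share thus rests on few genes, and Sult2a3 and Sult2a5 are paralogs of 1 family, so they are not separate cases. Both are dim, with means of 3.25 and 3.53 in the knockout and 4.31 and 4.58 in the wild type, below the array medians (4.84 to 4.94). Neither Sult2a3 (0.0683) nor Ugt1a10 (0.18) was called with mice 2 and 5 out, and Ugt1a10 was also lost without knockout mouse 2 or 5 or wild-type mouse 1, 2 or 4 (0.0574 to 0.0702). The Sult2a3 window, at chr7:14123049-14123298 (minus strand), is the example, with the HNF1 letters in capitals.
Sult2a3: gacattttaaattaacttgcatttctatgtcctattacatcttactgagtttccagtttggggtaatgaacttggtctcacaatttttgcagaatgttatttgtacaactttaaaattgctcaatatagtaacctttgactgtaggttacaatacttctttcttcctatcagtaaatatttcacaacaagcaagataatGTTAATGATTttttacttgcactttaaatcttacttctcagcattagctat

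Matrix proteases and their inhibitors held some of the largest rises. Mmp12, the macrophage elastase, read 8.46, 10.86, 10.35, 8.66 and 11.01 in the knockout against 5.01, 5.42, 4.86, 4.57 and 4.53 in the wild type (31.8-fold, 4.99 ± 0.46, adjusted p = 5.62e-05), and Mmp13, an interstitial collagenase, 5.30, 7.43, 7.09, 5.18 and 7.58 against 3.54, 3.31, 3.43, 4.02 and 3.52 (7.74-fold, 2.95 ± 0.43, adjusted p = 0.00161). Both were higher in mice 2, 3 and 5 than in mice 1 and 4, and both were clear of the wild type in all 5. Mmp7, matrilysin of duct epithelium, had another order: 7.02, 7.01, 5.73, 6.33 and 6.72, highest in mice 1 and 2, against 4.40, 4.87, 4.76, 4.67 and 4.60 (1.90 ± 0.21, adjusted p = 0.000254). Mmp2, the gelatinase of fibroblasts, also was highest in mouse 1, at 7.46, and rose 2.42-fold (1.28 ± 0.18, adjusted p = 0.00141). Timp1, the inhibitor of metalloproteinases, rose 4.65-fold (2.22 ± 0.26, adjusted p = 0.000287). Of 17 MMP and TIMP genes 9 rose and none fell, 7 kept their call in each fit without 1 array, and the median was 0.62. Markers of monocyte-derived macrophages rose in the same mice (10 of 14, with list levels of 0.72 to 2.18 in the knockout and -0.06 to 0.08 in the wild type), and their part in the rise of Mmp12 was not tested.

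Most collagen chains rose, and did so in all knockout mice. Of 23 measured chains 14 were higher and none lower, 13 of them in each fit without 1 array, and 12 were called with mice 2 and 5 out. The list's mean level was 0.55, 0.77, 0.54, 0.55 and 0.81 in knockout mice 1 to 5. Col1a1, a chain of type I collagen, read 8.02, 8.91, 8.20, 8.34 and 8.82 against 6.20, 6.44, 6.20, 6.22 and 6.42 (4.47-fold, 2.16 ± 0.16, adjusted p = 1.69e-05). Col3a1, of type III, read 8.48, 8.83, 8.30, 8.48 and 8.73 against 6.79, 6.85, 6.87, 6.61 and 6.93 (3.37-fold, 1.75 ± 0.11, adjusted p = 1.11e-05). Col6a3 rose 3.87-fold (1.95 ± 0.13, adjusted p = 1.17e-05), Col1a2 2.87-fold (1.52 ± 0.14, adjusted p = 5.32e-05) and Col4a1, of basement membranes, 2.15-fold (1.11 ± 0.18, adjusted p = 0.00311). The gap between the groups exceeded the range within each for Col1a1 and Col3a1.

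Of 36 genes of crosslinkers, glycoproteins and proteoglycans 18 rose and 1 fell, 16 of the rises in each fit without 1 array. Plod2, a lysyl hydroxylase that prepares collagen for crosslinks, rose 2.78-fold (1.48 ± 0.12, adjusted p = 3.35e-05), and the proteoglycan lumican, Lum, 3.17-fold (1.66 ± 0.17, adjusted p = 0.000144). Tenascin C, Tnc, had knockout values of 5.48, 7.85, 7.11, 5.65 and 7.36 against 4.51, 4.67, 4.36, 4.14 and 4.34 (2.29 ± 0.39, adjusted p = 0.00421), and thrombospondin 1, Thbs1, 6.28, 7.67, 7.57, 5.52 and 7.99 against 4.66, 4.47, 4.67, 5.48 and 4.74 (2.20 ± 0.40, adjusted p = 0.00651). For Thbs1, the groups only just did not overlap, with 5.52 in knockout mouse 4 and 5.48 in wild-type mouse 4. Integrins and laminins had 16 of 29 genes higher and 1 lower, of which 8 rises kept their call in each fit without 1 array. Itga6, a laminin receptor, rose 3.04-fold (1.61 ± 0.27, adjusted p = 0.00364), Itgb8 2.39-fold (1.26 ± 0.16, adjusted p = 0.00049) and Itgav, its partner, 2.02-fold (1.02 ± 0.21, adjusted p = 0.0128). ADAM, ADAMTS and ADAMTS-like genes had 8 of 15 higher and none lower, among them Adam8 (1.47 ± 0.30, adjusted p = 0.0123), the ADAMTS-like Adamtsl2 (1.18 ± 0.12, adjusted p = 0.000111) and Adamts9 (1.05 ± 0.14, adjusted p = 0.000971). Of 27 genes of TGF-beta and PDGF signalling 14 rose and none fell, with a median of 0.58. Pdgfra, Pdgfrb and the ligand Pdgfd rose 2.06-fold (1.04 ± 0.11, adjusted p = 0.000162), 2-fold (1.00 ± 0.15, adjusted p = 0.00243) and 2-fold (1.00 ± 0.21, adjusted p = 0.0121).

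Portal fibroblast and stellate cell markers gave different counts. Of 10 portal fibroblast markers 5 rose and none fell, and those 5 were called in each fit without 1 array and with mice 2 and 5 out. The other 5, Thy1, Fbln2, Clec3b, Msln and Entpd2, were not called. Dermatopontin, Dpt, read 8.37, 8.22, 7.88, 8.45 and 8.26 against 6.53, 6.50, 6.67, 6.87 and 6.47 (3.09-fold, 1.63 ± 0.12, adjusted p = 1.69e-05), and Cd34, which endothelial cells also carry, 6.08, 6.22, 5.93, 6.28 and 6.15 against 4.88, 4.99, 4.90, 5.08 and 5.02 (1.16 ± 0.09, adjusted p = 2.02e-05). Gas6, a ligand of TAM receptors, rose 1.71-fold (0.77 ± 0.09, adjusted p = 0.000292), the microfibril gene Mfap4 1.45-fold (0.53 ± 0.11, adjusted p = 0.0115) and elastin, Eln, 1.37-fold (0.45 ± 0.10, adjusted p = 0.017). The level of the list was 0.59, 0.57, 0.37, 0.55 and 0.54 in knockout mice 1 to 5, without a lead of mice 2 and 5. Of 14 stellate cell markers 4 rose and 2 fell. Cytoglobin, Cygb, rose 2.32-fold (1.21 ± 0.13, adjusted p = 0.000144) and the growth factor Hgf 1.65-fold (0.73 ± 0.12, adjusted p = 0.00431). Vipr1 fell 1.52-fold (-0.61 ± 0.10, adjusted p = 0.00274), as did Ecm1, an inhibitor of TGF-beta activation, 1.48-fold (-0.56 ± 0.13, adjusted p = 0.0178; 0.101 with mice 2 and 5 out). Whether the difference between the 2 lists is larger than chance was not tested.

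Markers of recruited macrophages rose, while several markers of resident macrophages fell. Of 14 markers of monocyte-derived and lipid-associated macrophages 10 rose and none fell, with a median of 1.22, 8 of them in each fit without 1 array and 9 members called with mice 2 and 5 out. Gpnmb, a glycoprotein of such macrophages, read 6.36, 8.05, 6.84, 6.89 and 7.70 against 3.93, 4.11, 4.15, 4.59 and 3.94 (8.13-fold, 3.02 ± 0.27, adjusted p = 5.1e-05). Cd63 and Cd9, tetraspanins of lysosomes and the cell surface, rose 3.61-fold (1.85 ± 0.23, adjusted p = 0.000412) and 2.89-fold (1.53 ± 0.19, adjusted p = 0.000551), and Ccr2, the receptor by which monocytes enter tissue, 2.55-fold (1.35 ± 0.17, adjusted p = 0.000517). Cd14, the coreceptor for bacterial lipopolysaccharide, which hepatocytes can also make, read 6.85, 9.50, 8.56, 6.62 and 9.23 against 5.40, 5.63, 5.69, 5.58 and 5.57 (2.58 ± 0.48, adjusted p = 0.00696). Lgals3 (galectin 3) read 7.35, 10.59, 8.25, 7.54 and 9.95 against 6.53, 6.55, 6.58, 6.70 and 6.41 (2.18 ± 0.52, adjusted p = 0.0242), and its call was lost without knockout mouse 5 or wild-type mouse 1, 2, 3 or 5 (0.0501 to 0.0555) and with the intensity trend (0.0559), but not with mice 2 and 5 both out (0.00623). The level of the list was 0.72, 2.18, 1.22, 0.88 and 1.68 in knockout mice 1 to 5. Itgax (CD11c), an integrin of dendritic cells and lipid-associated macrophages, rose 4.03-fold (2.01 ± 0.16, adjusted p = 1.81e-05), the beta-glucan receptor Clec7a 3.69-fold (1.88 ± 0.22, adjusted p = 0.000305), lipoprotein lipase, Lpl, 4.02-fold (2.01 ± 0.20, adjusted p = 9.4e-05) and cathepsin S, Ctss, 1.64-fold (0.72 ± 0.13, adjusted p = 0.0053).

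Kupffer cells are the macrophages resident in liver sinusoids. Of 12 measured markers 6 fell and 2 rose, and all 6 falls were called in each fit without 1 array and with mice 2 and 5 out. Cd163, the scavenger receptor for haemoglobin complexes, read 4.99, 4.57, 5.15, 4.79 and 5.22 in the knockout and 6.75, 7.10, 6.64, 6.92 and 7.03 in the wild type (3.85-fold lower, -1.94 ± 0.14, adjusted p = 1.17e-05). Timd4, a receptor for dying cells, read 6.46, 6.36, 6.61, 6.15 and 6.15 against 6.97, 7.30, 7.07, 7.31 and 7.29 (-0.85 ± 0.11, adjusted p = 0.000914), and Clec4f, a lectin found on Kupffer cells, 7.84, 7.74, 7.90, 7.53 and 7.94 against 8.26, 8.53, 8.51, 8.43 and 8.37 (-0.63 ± 0.10, adjusted p = 0.00271). Fcna, a ficolin, fell 1.91-fold (-0.93 ± 0.11, adjusted p = 0.00043). Knockout mice 2 and 5 did not stand apart from mice 1 and 4 in these genes. C6, a complement component on the list that hepatocytes also make, rose 1.88-fold (0.91 ± 0.17, adjusted p = 0.00778).

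MHC class II genes rose by a like amount in all knockout mice. H2-Aa read 8.67, 8.95, 8.47, 8.80 and 9.01 against 7.26, 7.58, 7.58, 7.89 and 7.46 (1.22 ± 0.13, adjusted p = 0.00019), H2-Ab1 rose 2.01-fold (1.01 ± 0.16, adjusted p = 0.00243), the invariant chain Cd74 1.75-fold (0.80 ± 0.14, adjusted p = 0.00435) and H2-Eb1 1.68-fold (0.75 ± 0.11, adjusted p = 0.00193). For H2-Eb1 the knockout values lay between 6.87 and 7.05 and the wild-type values between 5.98 and 6.52. Of 18 genes of dendritic cells and MHC class II, 5 rose and none fell. Neutrophil markers had 4 of 15 higher, 1 of them in each fit without 1 array: Retnlg rose 2.09-fold (1.06 ± 0.17, adjusted p = 0.00302). Most of these neutrophil rows were dim, with 2 of 15 at or above the array median on average. Markers of other cells were mostly not called, and few of their rows were bright: 3 of 9 B and plasma cell markers, 1 of 10 mast cell and basophil markers, 1 of 3 erythroid genes, 5 of 17 T and NK cell markers and 4 of 14 pancreas, gut and muscle genes reached that median. None of 9 B and plasma cell markers, 10 mast cell and basophil markers or 3 erythroid genes was called by limma. On these lists 2, 1 and 1 had an unadjusted p below 0.05, and 0, 1 and 0 were called in the fit of all 22 arrays. Higher calls fell on 1 of 17 T and NK cell markers (5.88%) and 1 of 14 pancreas, gut and muscle genes (7.14%), near the 5.16% of all genes. Of 21 endothelial markers 4 fell and none rose, none of the 4 with mice 2 and 5 out, among them Ehd3 (-0.78 ± 0.16, adjusted p = 0.0119; 0.088) and Wnt2, a Wnt ligand of sinusoidal endothelium (-0.37 ± 0.08, adjusted p = 0.0172; 0.0605).

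**Figure D4:**
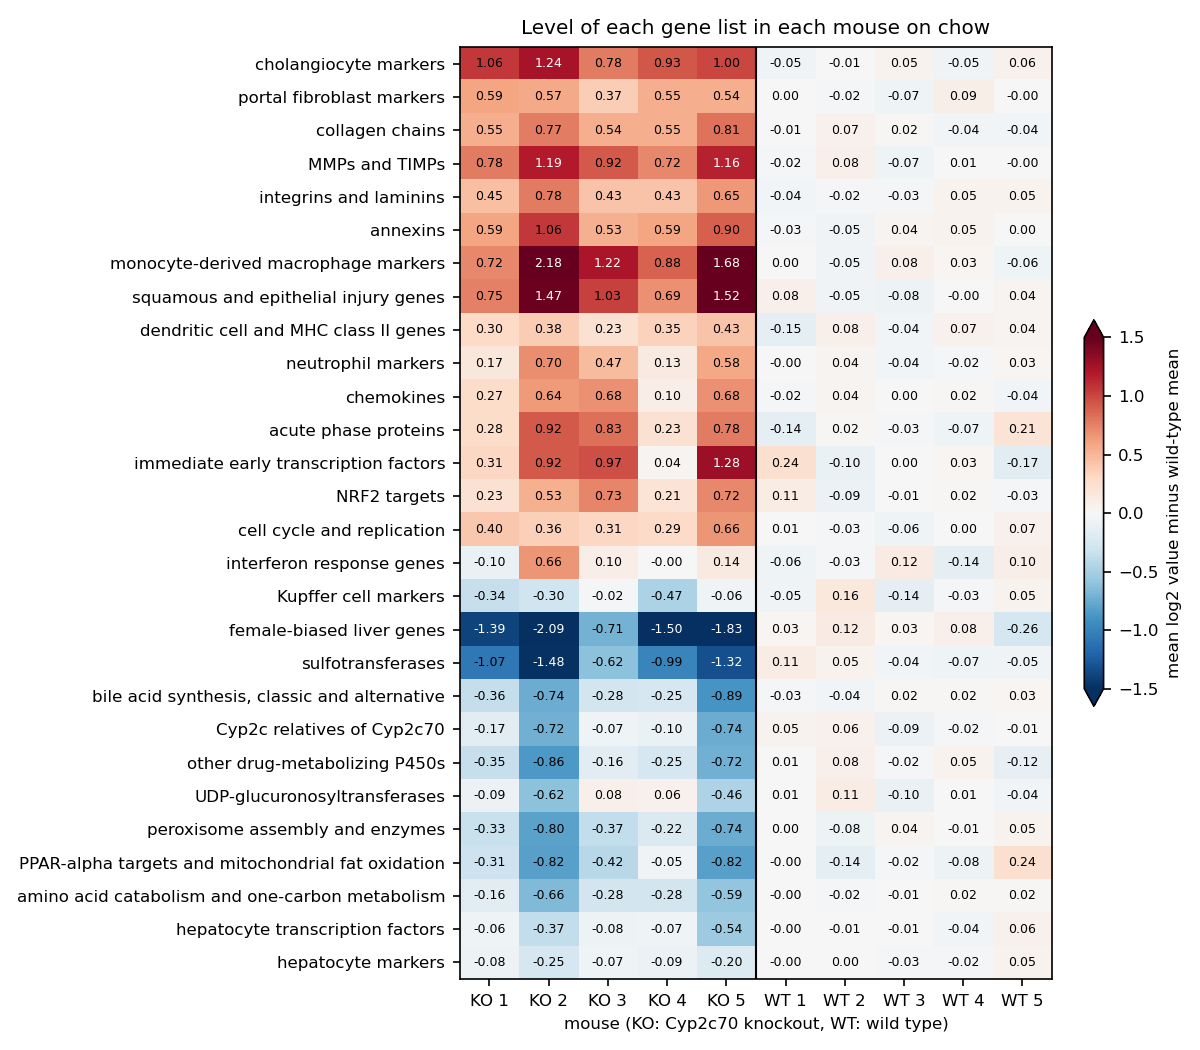
Each row is a gene list and each column a mouse; colour and number give the mean log2 value of the list's genes minus the wild-type mean. Cholangiocyte and portal fibroblast rows are at a like level in the 5 knockout columns, and the collagen row is raised in all 5, most in KO 2 and 5. Acute phase and immediate early rows are raised most in KO 2, 3 and 5, and rows of P450s, peroxisomes and fat oxidation are lowest in KO 2 and 5.

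Among chemokines 10 of 29 rose and 2 fell. Cxcl1, which attracts neutrophils, read 6.33, 7.27, 7.23, 6.06 and 7.44 against 5.59, 5.38, 5.33, 5.43 and 5.18 (1.49 ± 0.24, adjusted p = 0.00291), Ccl3 rose 2.98-fold (1.58 ± 0.25, adjusted p = 0.00284) and Cxcl14 4.01-fold (2.00 ± 0.34, adjusted p = 0.00387). Ccl2, which attracts monocytes through CCR2, had a wide spread: 5.37, 7.66, 6.90, 4.85 and 8.41 against 4.75, 4.19, 4.47, 4.49 and 4.06 (2.25 ± 0.54, adjusted p = 0.0258). Its call was lost without knockout mouse 2 or 3 or wild-type mouse 2, 3, 4 or 5 (0.0514 to 0.0704), with the intensity trend (0.0592) and with mice 2 and 5 out (0.0969). Cxcl13, which attracts B cells, fell in every mouse, with 5.69, 5.09, 5.80, 5.56 and 5.16 against 6.80, 7.13, 6.61, 6.88 and 6.70 (-1.36 ± 0.15, adjusted p = 0.000217). Receptors for chemokines, cytokines and microbial patterns had 13 of 34 higher and 1 lower, among them Osmr, the oncostatin M receptor (3.46-fold, 1.79 ± 0.27, adjusted p = 0.00216).

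Acute phase genes, which hepatocytes switch on in inflammation, rose unevenly. Saa1 read 8.92, 10.85, 10.34, 8.85 and 10.29 in the knockout against 6.58, 7.18, 6.74, 7.07 and 7.31 in the wild type (7.33-fold, 2.87 ± 0.35, adjusted p = 0.000368), and its close copy Saa2, with which it can share signal, changed by 2.86 ± 0.38, adjusted p = 0.000716. Lcn2, lipocalin 2, read 9.92, 12.07, 11.30, 9.92 and 11.77 against 7.87, 8.67, 8.42, 8.28 and 9.49 (2.45 ± 0.42, adjusted p = 0.00457). In these 3 genes mice 2, 3 and 5 formed the upper end and mice 1 and 4 the lower. Orm2 rose 2.27-fold (1.19 ± 0.23, adjusted p = 0.00848; 0.0732 with mice 2 and 5 out). Of 23 acute phase genes 7 rose and none fell, and the list's level was 0.28, 0.92, 0.83, 0.23 and 0.78 in knockout mice 1 to 5. Of 41 complement and coagulation genes 6 rose (14.6%) and 3 fell (7.32%), beside 5.16% and 3.2% of all genes. Plat, tissue plasminogen activator, rose 3.71-fold (1.89 ± 0.30, adjusted p = 0.00253), Plau, urokinase, 1.94-fold (0.96 ± 0.20, adjusted p = 0.0119; 0.0599 with mice 2 and 5 out) and the receptor C5ar1 1.94-fold (0.96 ± 0.19, adjusted p = 0.00859; 0.0721). Steap4, a metal reductase induced in inflammation, rose 2.59-fold (1.37 ± 0.25, adjusted p = 0.00558). Of the interferon response genes, none of 17 was called by limma (2 at an unadjusted p below 0.05, and 0 in the fit of all 22 arrays), with a median of 0.09, although the list stood at 0.66 in knockout mouse 2.

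Cell cycle and replication genes had 11 of 24 higher and none lower, beside 5.16% of all genes, but only 4 kept their call in each fit without 1 array. Mcm6, of the replicative helicase, rose 2.25-fold (1.17 ± 0.21, adjusted p = 0.00569), and Top2a 1.71-fold, with 5.66, 4.89, 5.27, 5.15 and 5.68 against 4.69, 4.55, 4.32, 4.50 and 4.72 (0.77 ± 0.15, adjusted p = 0.00854). Growth factor genes had 8 of 31 higher and 2 lower. The ligands of EGF-family receptors Btc, Ereg and Nrg1 rose 2.11-fold (1.07 ± 0.19, adjusted p = 0.00493), 2.11-fold (1.08 ± 0.17, adjusted p = 0.00274) and 4.29-fold (2.10 ± 0.39, adjusted p = 0.0066). Nrg1 knockout values were 5.89, 7.63, 6.94, 5.74 and 8.17 and wild-type values 4.86, 4.83, 5.00, 4.70 and 4.47. Fgf1 (-0.85 ± 0.18, adjusted p = 0.013; 0.0504 with mice 2 and 5 out) and Igfbp3 (-0.79 ± 0.16, adjusted p = 0.00899; 0.0623) fell.

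Immediate early genes divided the knockout mice as the acute phase list did. Of 23 immediate early factors 6 rose and none fell, 2 of them in each fit without 1 array, and the list's level was 0.31, 0.92, 0.97, 0.04 and 1.28 in knockout mice 1 to 5, so that mouse 4 lay within the wild-type range of -0.17 to 0.24. Klf5 rose 1.94-fold in all mice (0.96 ± 0.14, adjusted p = 0.0016). Atf3, a stress-induced factor, read 6.67, 7.37, 7.33, 6.13 and 7.83 against 6.38, 5.68, 5.69, 5.89 and 5.30, with overlap (1.28 ± 0.28, adjusted p = 0.0171; 0.114 with mice 2 and 5 out). Fosl1, an AP-1 subunit, read 4.44, 6.77, 6.67, 3.79 and 6.73 against 4.14, 4.06, 4.10, 4.32 and 3.61 and was not called (1.63 ± 0.53, adjusted p = 0.0752), since mice 1 and 4 lay in or near the wild-type range. Of 22 genes of ER stress, amino acid stress and heat shock 7 rose and 1 fell, among them Hspa1a (1.25 ± 0.20, adjusted p = 0.00314), Creb3l1 (1.05 ± 0.18, adjusted p = 0.00437) and Creld2 (0.97 ± 0.13, adjusted p = 0.000813). The NRF2 list had 4 of 16 higher and none lower, 1 in each fit without 1 array. Hmox1, haem oxygenase, is one of its targets that was not called: it read 6.77, 7.84, 9.83, 6.42 and 9.41 in the knockout and 6.74, 6.90, 6.42, 6.83 and 7.05 in the wild type (1.26 ± 0.55, adjusted p = 0.185), at least 2 log2 units up in mice 3 and 5 and within the wild-type range in mouse 1. Of 13 p53 targets 2 rose (15.4%, beside 5.16% of all genes). They were Tnfrsf10b, a TRAIL receptor (1.64 ± 0.31, adjusted p = 0.00774), and Plk2 (0.70 ± 0.16, adjusted p = 0.017, and 0.123 with mice 2 and 5 out).

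Annexins, which bind membranes in the presence of calcium, had 7 of 12 genes higher and none lower, 6 in each fit without 1 array. Anxa2 read 7.43, 9.76, 8.10, 7.60 and 9.72 against 5.79, 5.76, 5.95, 5.47 and 5.72 (6.89-fold, 2.79 ± 0.41, adjusted p = 0.00177) and was led by mice 2 and 5, whereas Anxa1 read 6.71, 7.00, 7.01, 6.72 and 7.23 against 5.32, 5.13, 5.47, 5.59 and 5.34 with a knockout SD of only 0.22 (1.56 ± 0.12, adjusted p = 1.81e-05). Anxa5 rose 2.43-fold (1.28 ± 0.17, adjusted p = 0.000949) and Anxa3 2.18-fold (1.13 ± 0.21, adjusted p = 0.00723). Of 14 S100 genes 6 rose and none fell, among them S100a6 (1.71 ± 0.27, adjusted p = 0.00266), S100g (1.39 ± 0.30, adjusted p = 0.0147) and S100a4 (0.90 ± 0.15, adjusted p = 0.00312). Actin cytoskeleton genes had 17 of 35 higher and none lower. Tagln2, an actin-binding protein, read 8.43, 9.92, 8.83, 8.17 and 9.75 against 6.94, 7.02, 6.98, 7.06 and 7.06 (2.00 ± 0.29, adjusted p = 0.00138), Flna rose 2.38-fold (1.25 ± 0.21, adjusted p = 0.00342), the intermediate filament gene Vim 2.27-fold (1.18 ± 0.15, adjusted p = 0.00068) and Myo5a 2.33-fold (1.22 ± 0.19, adjusted p = 0.00237). Actb, often used as a reference gene, was 1.8-fold higher (0.85 ± 0.22, adjusted p = 0.032), the 1 called of 9 reference genes. The Actb call was lost without knockout mouse 2, 3 or 5 or wild-type mouse 1, 3, 4 or 5 (0.0606 to 0.0759) and with mice 2 and 5 out (0.145).

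Some genes of hepatocyte metabolism fell, with the lowest list levels in mice 2 and 5. Of 31 genes of peroxisomes 15 fell and none rose, beside 3.2% of all genes, with a median of -0.41, but 3 of the 15 kept their call in each fit without 1 array, and 3 members were called lower with mice 2 and 5 out. The list's level was -0.33, -0.80, -0.37, -0.22 and -0.74 in knockout mice 1 to 5. Eci3, a peroxisomal enoyl-CoA isomerase, read 4.37, 3.68, 4.57, 4.23 and 4.09 against 5.68, 5.55, 5.37, 6.08 and 5.82 (-1.51 ± 0.17, adjusted p = 0.000224). Abcd2, a peroxisomal fatty acid transporter, fell 1.78-fold (-0.83 ± 0.17, adjusted p = 0.0102; 0.0504 with mice 2 and 5 out). Of 26 PPAR-alpha targets and mitochondrial fat oxidation genes 6 fell and 1 rose, among them Acot1 (-1.20 ± 0.27, adjusted p = 0.0185; 0.105 with mice 2 and 5 out). That list stood at -0.31, -0.82, -0.42, -0.05 and -0.82, overlapping the wild type, and 1 member was called lower with mice 2 and 5 out. The 14 hepatocyte markers, with 1 called lower, stood at -0.08, -0.25, -0.07, -0.09 and -0.20 in the same mice and at -0.03 to 0.05 in the wild type. The part of hepatocyte content in the falls of both lists was not tested.

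Amino acid catabolism had 11 of 29 genes lower and none higher, 6 in each fit without 1 array. Prodh and Prodh2, the first enzymes of proline and hydroxyproline breakdown, fell 1.75-fold (-0.81 ± 0.16, adjusted p = 0.00817) and 1.53-fold (-0.62 ± 0.11, adjusted p = 0.00646), and Shmt1 and Bhmt2, of one-carbon metabolism, 1.71-fold (-0.78 ± 0.16, adjusted p = 0.0102) and 1.7-fold (-0.76 ± 0.16, adjusted p = 0.0134). The fall of Fah, the last enzyme of tyrosine breakdown (-0.40 ± 0.10, adjusted p = 0.0351), was lost without knockout mouse 2 or 5 or any 1 wild-type mouse (0.0532 to 0.0856) and with mice 2 and 5 out (0.179). Among 19 pericentral genes 3 fell, Slc1a2 with -0.51 ± 0.12, adjusted p = 0.019 and 0.0665 with mice 2 and 5 out. None of 18 cholesterol synthesis and uptake genes was called by limma (4 at an unadjusted p below 0.05, and 0 in the fit of all 22 arrays), with a median of -0.15. Lower calls fell on 1 of 32 oxidative phosphorylation genes (3.12%) and 1 of 30 mitochondrial ribosomal genes (3.33%), beside 3.2% of all genes. On the oxidative phosphorylation and mitochondrial ribosomal lists 11 and 7 members had an unadjusted limma p below 0.05. In the fit of all 22 arrays 7 and 4 of their members were called lower. Of 22 hepatocyte transcription factors 1 fell (4.55%, beside 3.2% of all genes), Nr1i3 (0.085 with mice 2 and 5 out). On that list 9 members had an unadjusted limma p below 0.05, and in the fit of all 22 arrays 8 were called lower and 1 higher. Its level was -0.37 and -0.54 in mice 2 and 5, -0.06 to -0.08 in the other knockout mice and -0.04 to 0.06 in the wild type.

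Lipid genes moved one by one. Elovl3, a fatty acid elongase, read 3.81, 3.17, 4.46, 3.77 and 3.47 against 6.00, 5.08, 6.12, 5.77 and 6.13 (4.23-fold lower, -2.08 ± 0.24, adjusted p = 0.000287), and its relative Elovl7 5.80, 7.99, 6.16, 5.70 and 7.38 against 4.07, 4.31, 4.04, 4.30 and 3.75 (5.7-fold higher, 2.51 ± 0.38, adjusted p = 0.00197). The desaturase Scd2 rose 2.05-fold (1.03 ± 0.15, adjusted p = 0.00185) and Acacb, which makes malonyl-CoA at mitochondria, fell 1.51-fold (-0.60 ± 0.11, adjusted p = 0.0059). Apolipoprotein A-IV, Apoa4, read 10.40, 10.41, 10.73, 10.46 and 11.46 against 9.83, 9.39, 9.97, 9.75 and 9.37 (1.03 ± 0.20, adjusted p = 0.00817), and the phospholipid transfer protein Pltp fell 1.75-fold (-0.81 ± 0.14, adjusted p = 0.00435). Among glycolytic isozymes 4 of 22 rose and none fell, and those 4 are not the hepatic forms: Pkm rose 2-fold (1.00 ± 0.20, adjusted p = 0.0105), Pfkp 1.76-fold (0.81 ± 0.13, adjusted p = 0.00341) and Hk1 1.42-fold (0.50 ± 0.11, adjusted p = 0.0157; 0.103 with mice 2 and 5 out). The fourth, Hk2 (0.46 ± 0.13, adjusted p = 0.0447), overlapped the wild type and lost its call without knockout mouse 2, 3 or 5 or any 1 wild-type mouse (0.0558 to 0.111), with quantile normalization or median subtraction (0.0571 to 0.0708) and with mice 2 and 5 out (0.242).

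**Figure D5:**
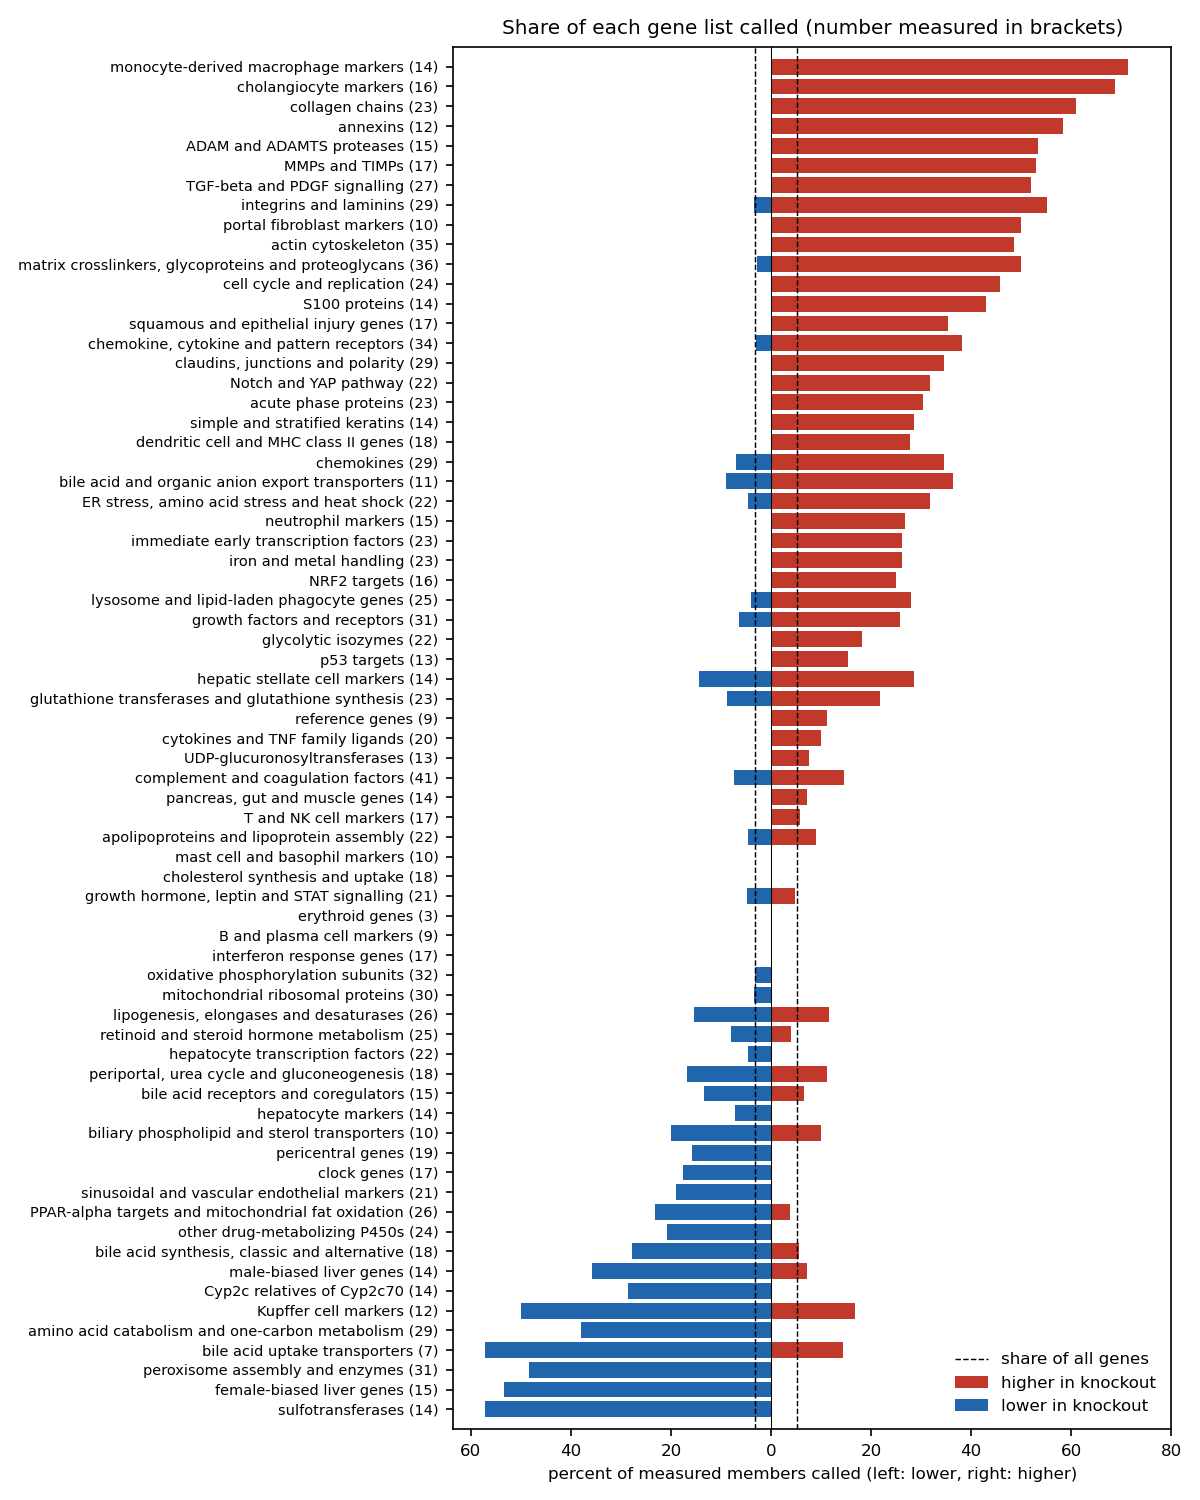
For each gene list the bars give the percent of its measured members called higher (red, to the right) or lower (blue, to the left) in the knockout, with the number measured in brackets; dashed lines mark the shares of all genes, 5.16% higher and 3.2% lower. Markers of monocyte-derived macrophages (71.4%) and cholangiocytes (68.8%) are at the top, and sulfotransferases (57.1% lower) at the bottom.

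Further genes among the largest changes belong to no list or to several. Ptgds, a prostaglandin D synthase, read 9.38, 8.21, 8.14, 8.37 and 8.46 against 6.31, 6.08, 6.28, 6.57 and 6.16 (2.23 ± 0.20, adjusted p = 5.45e-05), with mouse 1 the highest. Plet1, a surface protein of epithelial progenitors, rose 4.31-fold (2.11 ± 0.18, adjusted p = 3.88e-05), and Ifi27l2b read 7.20, 7.13, 7.03, 7.41 and 7.36 against 5.41, 5.27, 5.69, 5.41 and 5.75 (1.72 ± 0.12, adjusted p = 1.11e-05). Among the falls, Mup-ps12, a row of the major urinary protein cluster, whose copies can share signal, read 2.15, 2.26, 2.50, 2.43 and 3.86 against 6.22, 5.56, 5.18, 5.10 and 4.00 (-2.57 ± 0.38, adjusted p = 0.00185). Hhip, an inhibitor of hedgehog ligands, read 4.46, 4.31, 4.78, 4.36 and 4.37 against 5.86, 6.07, 5.58, 5.84 and 6.26 (-1.46 ± 0.13, adjusted p = 5.45e-05), close in every knockout mouse. Gbp2b fell 2.9-fold (-1.54 ± 0.22, adjusted p = 0.00144), Acpp, an acid phosphatase, 2.58-fold (-1.37 ± 0.14, adjusted p = 9.61e-05), Slc17a8 2.53-fold (-1.34 ± 0.23, adjusted p = 0.00421), Csrp3 2.48-fold (-1.31 ± 0.24, adjusted p = 0.00648) and A1bg 2.82-fold (-1.49 ± 0.30, adjusted p = 0.0109; 0.0781 with mice 2 and 5 out).

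Some genes differed widely among knockout mice. Mybl1, a MYB-family transcription factor, read 4.77, 7.22, 6.06, 4.22 and 7.36 in knockout mice 1 to 5 and 3.68, 3.53, 3.53, 3.73 and 3.84 in the wild type (2.26 ± 0.51, adjusted p = 0.018), a knockout SD of 1.42 against 0.13. Cdh17, a cadherin of intestinal epithelium, read 3.35, 6.55, 3.56, 3.55 and 5.01 against 3.44, 3.62, 3.77, 3.43 and 3.05 and was not called (0.94 ± 0.50, adjusted p = 0.284): mice 2 and 5 were high and the other knockout mice within or near the wild-type range. Sprr1a had the largest knockout SD, 1.94, beside 0.15 in the wild type. At the other end, Krt19, H2-Eb1, Gas6, Cd74 and Jag1 had knockout SDs of 0.08 to 0.10, so that rises of 1.67-fold to 1.91-fold were nearly the same in each of the 5 mice.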

How the data were processed

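Liver RNA of 22 female mice was measured on Affymetrix MoGene 2.0 ST arrays, and the 10 arrays of chow-fed mice were compared. The deposited value table holds linear intensity values that the authors made by RMA with a probe-level model, per the labels, which call the scale unlogged. As a method, RMA corrects background, normalizes across arrays and combines probes, and it tends to understate the changes of dim genes. The version of RMA, the genome build and the probe-to-gene annotation are not given in the sources used. Whether all arrays were normalized together is not given there either.

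Of 24973 rows, 24015 carry a single gene symbol in the platform annotation, none carries several and 958 carry none. Row numbers are Entrez gene IDs, and 23922 rows matched the RefSeq gene table of GRCm38.p6. For 4 symbols on several rows the brighter row was kept, which left 24011 genes. Intensities of the chow arrays ran from 1.67 to 9877. No pseudocount was added before log2 was taken in R 4.3.3 with the data.table package, version 1.17.8. Genes were tested with limma 3.58.1 (lmFit and eBayes) on the 10 chow arrays alone, KO_chow against WT_chow, with Benjamini-Hochberg adjustment over all 24011 genes. UDCA arrays were left out because the knockout chow mice varied more than the wild type, and a spread shared with other groups would understate their error. The number of arrays limits the precision.

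The script was tested on simulated data with known changes. Tables and drawings were made in Python 3.11.15 with pandas 2.3.3. Gene lists (69 lists, 1339 genes, of which 88 matched no row and are not analysed here, and 6 matched by an older symbol), the genes named and the mice left out were chosen with earlier results of these data known. Some genes are on several lists, so the counts of different lists are not independent. A list is described by the counts of its called members, its median change and its level, which is the mean over its genes of the log2 value minus the wild-type mean. The text names a part of these genes: Cyp2c70 and its relatives and neighbours, the largest changes among called genes without overlap, the 5 largest changes of each list, a fixed set of bile acid, duct and reference genes, the largest SDs and the lowest p-values, leaving out predicted genes, small RNAs and receptor and immunoglobulin families. Sult2a3, Sult2a5, Ugt1a10, Sult3a2, Blnk and Olfr111 were named after their values were seen. Alternatives changed the arrays, scaling, filter, pseudocount, weights, moderation or a block for sample numbers 16 to 22. Of the chow mice, knockout mouse 5 and wild-type mice 4 and 5 have numbers in that block. The other chow mice have numbers from 1 to 15, so the block is unequal between the genotypes. No label says what the order of numbers stands for.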

Additional observations from a re-analysis of the deposited data

Results flagged for a closer look

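In each group of 5 mice the highest or lowest value was compared with the rest by Dixon's ratio, for 206 named genes and 2 groups. Of 412 such groups 20 passed its critical value for 5 samples, 0.71, 9 in the knockout and 11 in the wild type, where chance gives about 1 in 20.

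In the knockout, mouse 3 stood apart in 4 genes. Its Sult2a1 value of 4.82 was above the others (2.35 to 2.80), its Ecm1 value of 8.83 was above 8.30 to 8.42, its Cd24a value of 6.55 was below 7.20 to 7.37 and its H2-Eb1 value of 6.87 was below 7.00 to 7.05. Mouse 1 was highest for Pdgfra (7.69, others 7.13 to 7.29) and Ptgds (9.38, others 8.14 to 8.46). Mouse 2 was highest for Scd2 (7.44, others 6.61 to 6.80), mouse 4 lowest for Hk1 (4.99, others 5.36 to 5.46) and mouse 5 highest for Mup-ps12 (3.86, others 2.15 to 2.50).

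In the wild type, mouse 3 was highest for Pdlim1 (7.76, others 7.39 to 7.48) and lowest for Slc51b (4.22, others 4.66 to 4.79), Gstt3 (8.28, others 8.69 to 8.77), Mmp2 (5.42, others 5.59 to 5.64) and Fcna (7.13, others 7.36 to 7.44). Mouse 5 was lowest for Fgf21 (5.25, others 5.54 to 5.65) and highest for Steap4 (9.26, others 8.95 to 9.03) and Sult2a3 (5.15, others 3.95 to 4.24). Sprr1a was highest in mouse 1 (4.39, others 4.04 to 4.07), Thbs1 in mouse 4 (5.48, others 4.47 to 4.74), and Abcd2 was lowest in mouse 2 (9.50, others 9.90 to 10.01). No cause was tested for any of these values.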

How the results depend on the processing

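Counts of called genes depended on the arrays more than on the scaling. Against 2008 changed genes, 1240 higher and 768 lower, the fit of all 22 arrays called 3295, 1847 and 1448, and leaving out knockout mice 2 and 5 together left 733, 530 and 203. Leaving out 1 array at a time gave 1070 to 2549 changed, 752 to 1493 higher and 318 to 1056 lower: the changed count fell by over 1.5 times without knockout mouse 2 (1070) or 5 (1248) or wild-type mouse 1 (1111), 2 (1261), 3 (1252), 4 (1214) or 5 (1228). The 314 changes of at least 2-fold ranged from 213 to 444 without 1 array, and were 169 without knockout mice 2 and 5 and 161 with a pseudocount of 16, which shrinks the changes of dim genes. The other settings (a filter on dim genes, quantile normalization, median subtraction, intensity trend, group-specific or array weights, a block for the second run of sample numbers, and the mean of rows) kept all 4 counts within 1.5 times. Calls were 61.8% higher in the main comparison, 58.8% with quantile normalization, 57% with median subtraction and 72.3% without knockout mice 2 and 5. The change of Cyp2c70 stayed between -0.89 and -0.80 without 1 array and was called in every setting.

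Of 185 called genes that the text may name, 169 kept their call in each fit without 1 array, 10 lost it in another setting and 33 without knockout mice 2 and 5, and none changed sign. All settings share arrays with the main comparison, so the kept signs are not an independent check. Of 21 genes not called, 7 were called in the fit of all 22 arrays. Medians of 20 lists moved by over 1 SD between knockout mice in at least 1 setting. The cause of these shifts was not tested, beyond there being fewer mice. No paired analysis was possible because each sample number in the titles occurs once.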

Other observations

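Olfr111, a row of the olfactory receptor family, which the naming rule left out and which was named here after its values were seen, was called higher. It read 4.70, 5.39, 5.18, 5.05 and 4.57 in knockout mice 1 to 5 and 1.62, 1.15, 1.47, 1.38 and 2.35 in the wild type, a difference of deposited log2 intensities of 3.39 ± 0.21 with an adjusted p of 1.11e-05 by limma. The call held in each fit without 1 array and with knockout mice 2 and 5 out (7.36e-05). The wild-type values lie near the lowest intensity of the chow arrays (1.67 before the logarithm) and the knockout values near the array medians of 4.84 to 4.94 in log2, so neither is known to be above background. Which other transcripts its probes may read was not tested.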
